A study of Homo sapiens with 4 samples.

Results

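Amino acid transporters of the plasma membrane and the lysosome were examined by RNA-seq in H1299, a long-established cell line from a human lung carcinoma of the non-small-cell kind, after exposure to mercury chloride. The members are the protein-coding genes of the families SLC1, SLC3, SLC7, SLC36, SLC38 and SLC43, taken by gene symbol and without SLC7A11, and they number 39 of 20046 protein-coding genes. The HgCl2 group received 5 μM HgCl2 for 48 h, and the EtOH group received the solvent, 0.6% EtOH, for the same time. The study's methods give the control cells no HgCl2, whereas the treatment text of the labels names 5 μM HgCl2 for all 4 samples. Each group has 2 columns of counts, labelled replicates 1 and 2. The study chose this concentration as one that left viability unaffected and asked how transcription responds to it.

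Amino acid transporters work as exchangers, as sodium-coupled or proton-coupled carriers, or as uniporters. SLC38A1 and SLC38A2 (SNAT1 and SNAT2) bring small neutral amino acids such as glutamine and alanine into the cell with sodium, SLC7A1 (CAT1) carries arginine and lysine, and the SLC7 light chains exchange amino acids only when paired with a heavy chain, SLC3A2 (4F2hc) or SLC3A1 (rBAT). SLC36A1 and SLC38A9 sit on lysosomes, where SLC38A9 passes the arginine level on to the kinase complex mTORC1. When amino acids run short, the kinase GCN2 and the factor ATF4 raise a set of genes to which SLC38A2, SLC7A1, SLC7A5 and SLC3A2 belong. Inorganic mercury binds thiols, and its conjugates with cysteine are known substrates of some of these carriers.

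The counts sum to between 4720978 and 5053120 per column, and the transporters hold 25942 and 26082 of them in EtOH and 29051 and 28956 in HgCl2. Within each group the columns differed by less than the sampling noise over all transcripts. The variance of their difference was 0.505 of that expected for independent libraries in EtOH and 0.516 in HgCl2, over 12382 and 10611 transcripts. Over 21 transporter transcripts it was 0.738 (95% interval 0.437 to 1.51) in EtOH and 0.338 (0.200 to 0.690) in HgCl2. For these the EtOH interval includes the value of independent libraries. On the ratios over all transcripts, each group was counted as 1 sample and no p-value is given. A transcript is called changed when its log2 fold change reaches 1 in either direction, a 2-fold change. Each fold change carries a 95% Clopper-Pearson interval computed on mean counts, for counting error alone. The groups also differed as whole libraries. Mitochondrial transcripts took 24.8% of the counts in EtOH and 17.9% in HgCl2, transcripts with a count numbered 33106 to 33148 in EtOH and 25432 to 25531 in HgCl2, and retained introns took 3.28% and 4.08% of the counts in the first column of each group. The part of these differences in the results was not tested. Among the markers of the line, VIM had 620 and 628 counts in EtOH and 501 and 511 in HgCl2, and KRT8 had 53 and 58 against 4 and 4. KRT18 had 18 to 31 counts and KRT7 had 15 and 14 against 3 and 2. EPCAM, SFTPC and the blood cell gene PTPRC had 0 counts, NKX2-1 had 0 to 2, the stromal COL1A1 had 13 and 18 against 3 and 4, and the vessel gene PECAM1 had 1 to 5.

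Counts were made per transcript, and most transporter counts fell on transcripts that hold some bases shared with no other listed transcript, called own bases here. Of the transporter transcripts with a count, SLC3A2 ENST00000539891 (6, 2, 3 and 3 counts) and ENST00000537839 (3 and 1 counts in EtOH, 0 in HgCl2) have 0 own bases on either measure of strand, and 2 retained introns of SLC7A6 have 0 unless strand is used. For SLC38A2, which lies at chr12:46358188-46372773 on the minus strand of GRCh38, the counts are placed here on the own bases. This placing is an inference, since the counting options were not given in the sources used here. The main transcript ENST00000256689, which has 16 exons, is counted on its last 293 bases (chr12:46358188-46358480), the end of the 3′ UTR. Its other transcripts with a count are counted on pieces of introns. The sequences of 6 of these are shown because the largest increases among the well-counted transporter transcripts lie on some of them, with the GT that opens an intron and the AG that closes it in capitals where the piece reaches them.
SLC38A2 intron 14, the whole intron of 112 bases (chr12:46362382-46362493, ENST00000552703): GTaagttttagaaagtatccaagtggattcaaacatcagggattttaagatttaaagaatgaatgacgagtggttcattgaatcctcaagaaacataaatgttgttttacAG
SLC38A2 intron 13, its last 266 of 382 bases (chr12:46362639-46362904, ENST00000546520): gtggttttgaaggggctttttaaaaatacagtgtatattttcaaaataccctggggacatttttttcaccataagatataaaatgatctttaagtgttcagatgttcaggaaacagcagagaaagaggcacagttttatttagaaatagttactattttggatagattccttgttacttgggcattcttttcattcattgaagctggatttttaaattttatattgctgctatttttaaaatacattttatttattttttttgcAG
SLC38A2 intron 4, its last 70 of 3171 bases (chr12:46367341-46367410, ENST00000548870): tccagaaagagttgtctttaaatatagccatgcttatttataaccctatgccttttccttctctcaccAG
SLC38A2 intron 7, its last 118 of 1674 bases (chr12:46365190-46365307, ENST00000551374): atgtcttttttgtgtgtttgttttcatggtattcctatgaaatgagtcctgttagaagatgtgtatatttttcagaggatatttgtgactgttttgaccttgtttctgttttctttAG
SLC38A2 intron 15, the first 120 of the 431 own bases (chr12:46362164-46362283, ENST00000548785): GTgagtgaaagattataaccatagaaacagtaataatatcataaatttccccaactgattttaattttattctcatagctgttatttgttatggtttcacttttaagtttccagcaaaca
SLC38A2 intron 8, 90 bases inside it (chr12:46364743-46364832, ENST00000548236): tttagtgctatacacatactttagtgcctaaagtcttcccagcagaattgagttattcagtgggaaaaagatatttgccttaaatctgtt
These pieces are rich in A and T, with a GC content between 27.5% and 37.1%. The pieces of introns 4, 7, 8 and 13 begin at the annotated 5′ start of their transcripts. Whether their reads came from retained introns or from other transcript starts was not tested.

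SLC38A2, the glutamine and alanine carrier that ATF4 is known to raise, had the largest increases of the well-counted transporter transcripts. The own bases of the transcripts with these increases lie on introns. Well-counted here means a mean of at least 30 counts over the 4 columns. Intron 14 (ENST00000552703) had 51 and 56 counts in EtOH and 219 and 210 in HgCl2. Intron 13 (ENST00000546520) had 163 and 161 counts in EtOH and 455 and 463 in HgCl2. Intron 4 (ENST00000548870, a transcript without a defined coding sequence) had 58 and 52 against 158 and 146. For each of these both HgCl2 columns lay above both EtOH columns. The columns of a group differ by less than sampling noise, so this separation is not counted as support beyond the intervals. Its share over all transcripts is not given. Since the culture was measured in bulk, more cells with a transcript and more of it per cell cannot be told apart. On the log2 scale intron 14 rose by 2.14 (interval 1.71 to 2.61), intron 13 by 1.65 (1.38 to 1.91) and intron 4 by 1.61 (1.16 to 2.08).

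The main transcript of SLC38A2, ENST00000256689, had 3275 and 3259 counts in EtOH and 3658 and 3682 in HgCl2. Its log2 fold change of 0.31 (0.24 to 0.38) stayed under 2-fold, and it became -0.05 when the median of transcripts of like GC content was subtracted. Beside it, intron 15 (ENST00000548785) had 281 and 286 counts in EtOH and 347 and 326 in HgCl2, a log2 fold change of 0.39 (0.16 to 0.62). Intron 7, counted under the coding transcript ENST00000551374, had 125 and 103 against 172 and 181, a log2 fold change of 0.77 (0.43 to 1.13). The columns of the groups did not overlap for either piece, which is again not counted as support, and neither reached 2-fold. The piece inside intron 8 (ENST00000548236) had 35 and 30 counts against 16 and 21, with a log2 fold change of -0.67 (-1.58 to 0.20).

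Set against the main transcript of the same libraries, which takes out any scaling between libraries, intron 14 was 3.57-fold higher in HgCl2 (log2 1.84, 95% Wald interval 1.40 to 2.27). Intron 13 was 2.52-fold higher (log2 1.33, 1.07 to 1.60) and intron 4 was 2.46-fold higher (log2 1.30, 0.85 to 1.75). Intron 7 stood at 1.38-fold (log2 0.46, 0.12 to 0.81). Intron 15 stood at 1.06-fold, with an interval of log2 -0.16 to 0.32 that includes 0, and intron 8 at 0.507-fold (log2 -0.98, -1.81 to -0.15). The neighbouring introns 14 and 15 differed from each other, since the ratio of intron 14 to intron 15 was 3.38-fold higher in HgCl2 (log2 1.76, 1.27 to 2.24). That of intron 13 to intron 15 was 2.39-fold higher (log2 1.26, 0.91 to 1.60). Introns 14 and 13 differed less, by log2 0.50 with an interval from -0.00 to 1.0.

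**Figure D1:**
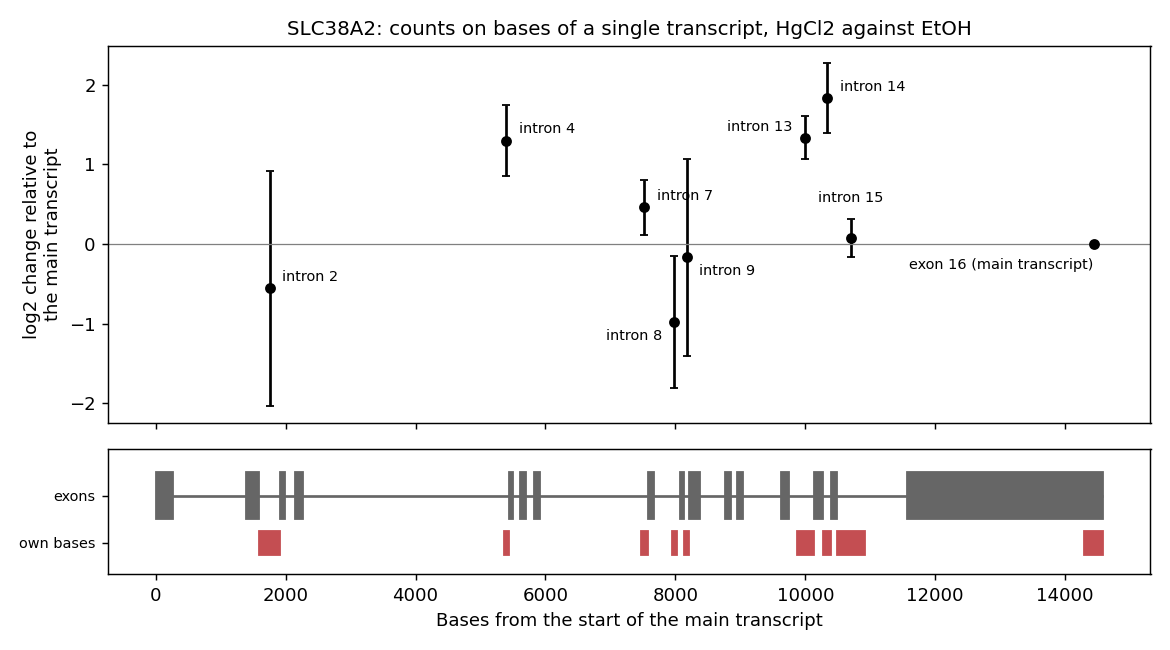
Upper panel, log2 change in HgCl2 against EtOH of the counts on each piece of SLC38A2, relative to the main transcript (y axis), against its distance in bases from the start of that transcript (x axis). Points are ratios of mean counts and bars are 95% Wald intervals of counting error. The lower panel shows the 16 exons in grey and the own bases in red. Introns 4, 13 and 14 lie above 1, while intron 15 lies at 0.08 and intron 8 at -0.98.

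In shares, the main transcript held 82.0% of the SLC38A2 counts in EtOH (95% Wilson interval 80.7 to 83.1) and 72.8% in HgCl2 (71.5 to 74.0). Intron 13 went from 4.06% (3.49 to 4.72) to 9.10% (8.34 to 9.93), and intron 14 from 1.34% (1.03 to 1.75) to 4.25% (3.73 to 4.85). Such shifts were common in these libraries. Over all genes whose main transcript and another transcript were both well counted, 571 other transcripts of 428 genes were compared, and 25.9% stood at least 2-fold higher relative to the main transcript in HgCl2 and 10.7% at least 2-fold lower, with a median log2 of 0.35. For the 233 retained introns among them these shares were 30.9% and 8.15%. The 5 such transcripts of SLC38A2 included 3 at least 2-fold higher and 0 lower, and 2 of its 3 retained introns were at least 2-fold higher. The share of retained introns in all counts was larger in HgCl2 too, as given above, and its part in the shift of SLC38A2 was not tested.

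SLC38A1, the neighbour of SLC38A2 on chromosome 12 and also a sodium-coupled glutamine carrier, gave most of the transporter counts. Its main transcript ENST00000398637 (chr12:46183063-46269043) had 20209 and 20296 counts in EtOH and 22282 and 22170 in HgCl2. The log2 fold change was 0.28 (0.25 to 0.31), under 2-fold, beside a median of 0.21 over all 7107 well-counted transcripts, and lay between 0.06 and 0.46 under the alternatives tried. SLC38A1 held 77.9% of the transporter counts in EtOH and 76.7% in HgCl2, and SLC38A2 held 15.3% and 17.4%. By FPKM, counts scaled by library and by the full length of the transcript, the main transcript of SLC38A1 stood above that of SLC38A2, at 455 against 124 in EtOH and 624 against 174 in HgCl2. Per own base the order was the other way, with 4.27 counts for SLC38A1 and 11.2 for SLC38A2 in EtOH and 4.69 and 12.5 in HgCl2, so the order of these genes depends on the length used.

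The other SLC38 members were thinly counted. SLC38A9, the lysosomal arginine sensor, had 38 and 42 counts over all its transcripts in EtOH and 12 and 11 in HgCl2. Its coding transcript ENST00000502247 had 10 and 13 counts in EtOH and 1 and 2 in HgCl2, a log2 fold change of -2.70 with a wide interval (-6.73 to -0.39). Its retained intron ENST00000515159 had 17 and 19 against 4 and 3. The main transcript of SLC38A9 has 0 own bases and 0 counts. SLC38A6 had 22 and 24 counts against 30 and 27, and of its transcripts ENST00000534758 went from 5 and 7 to 11 and 12, a log2 fold change of 1.07 whose interval (-0.46 to 2.79) includes 0. SLC38A10 had 16 and 22 counts against 15 and 13. SLC38A7 and SLC38A11 had 2 or 3 counts per column in EtOH and 0 in HgCl2, and no fold is given where both groups are at or under 3 counts. SLC38A3, SLC38A4, SLC38A5 and SLC38A8 had 0 counts in every column.

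**Figure D2:**
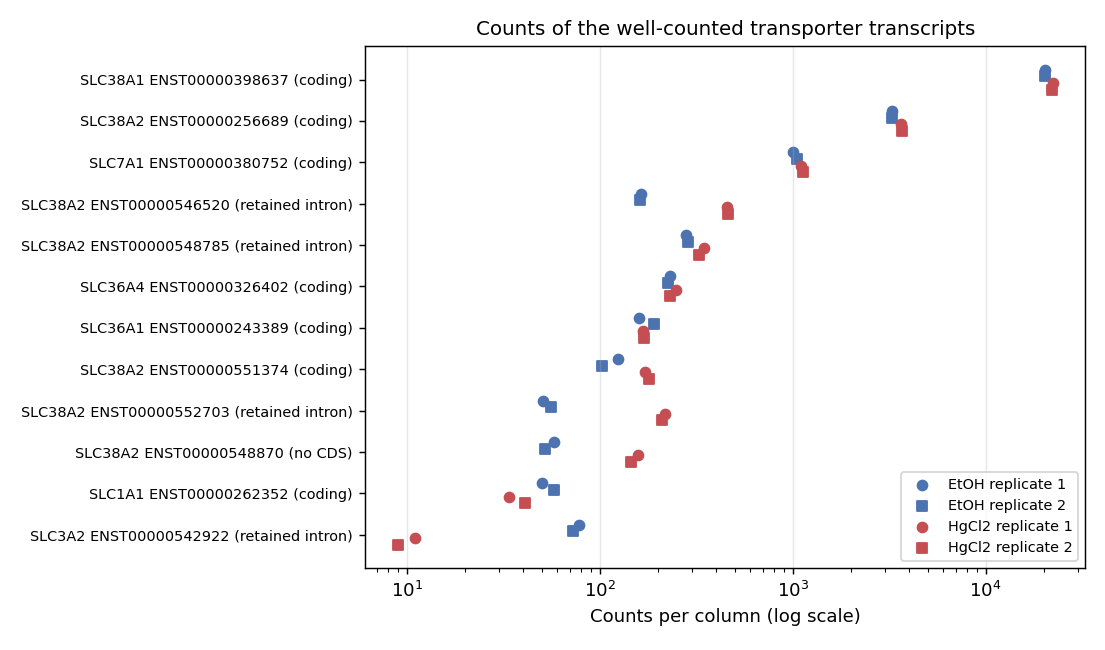
Counts (x axis, log scale) in each of the 4 columns for the 12 well-counted transcripts of the amino acid transporters (y axis), EtOH in blue and HgCl2 in red. Circles are replicate 1 and squares replicate 2. The columns of SLC38A2 introns 13 and 14 (ENST00000546520 and ENST00000552703) and of the SLC3A2 intron (ENST00000542922) lie apart by group, while SLC36A1 and SLC36A4 lie together.

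SLC3A2, the heavy chain that carries the light chains to the membrane, had the only well-counted transporter transcript that fell by 2-fold or more. The retained intron ENST00000542922 had 78 and 73 counts in EtOH and 11 and 9 in HgCl2, and it fell by 2.76 on the log2 scale (interval -3.89 to -1.82). Its 985 own bases lie in intron 3, and its counts are placed there. The last 120 of them (chr11:62884337-62884456, plus strand of GRCh38, with the closing AG in capitals) are shown because this piece moved against introns 14, 13 and 4 of SLC38A2.
SLC3A2 intron 3, ENST00000542922: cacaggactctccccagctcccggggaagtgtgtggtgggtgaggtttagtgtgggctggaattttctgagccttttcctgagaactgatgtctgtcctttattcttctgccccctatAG
The other counted SLC3A2 transcript of some depth, the retained intron ENST00000541649, had 34 and 23 counts against 19 and 19, a log2 fold change of -0.44 (-1.36 to 0.45). The deposited FPKM imply a length of 515 bases for it, against 1926 in the annotation used here, so its own bases are uncertain. Over all transcripts SLC3A2 had 126 and 106 counts in EtOH and 36 and 32 in HgCl2, and its sum fell by 1.78 on the log2 scale (-2.38 to -1.22). The main coding transcript of SLC3A2, ENST00000338663, has 0 own bases and 0 counts. The fall is thus mainly that of retained-intron transcripts, and the level of the main 4F2hc mRNA cannot be read from their counts. SLC3A1, the heavy chain rBAT, had 0 counts.

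Light chains had few counts. SLC7A5 (LAT1), the large neutral amino acid exchanger of many tumours, had 0 counts in all 4 columns although its main transcript has 623 own bases and a GC content of 61.2%. SLC7A6 (y+LAT2) had 13 and 18 counts in EtOH and 2 and 5 in HgCl2. Nearly all were on the retained intron ENST00000563208, which had 12 and 16 counts against 2 and 5. Its log2 fold change was -1.82 (-4.08 to -0.11). That intron has 0 own bases when both strands are counted and 247 on its own strand, and whether the counting used strand was not given in the sources used here. SLC7A7 had 2 and 2 counts in EtOH and 0 in HgCl2, and SLC7A8, SLC7A9, SLC7A10 and SLC7A13 had 0.

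SLC7A1, the arginine and lysine carrier CAT1, was the third most counted transporter. Its main transcript ENST00000380752 (chr13:29509414-29595688) had 1004 and 1059 counts in EtOH and 1101 and 1126 in HgCl2. The log2 fold change was 0.25 (0.13 to 0.38), under 2-fold and close to the median of 0.21 over all well-counted transcripts. The other members of its group had few or no counts. SLC7A14, a lysosomal relative, had 1 and 2 counts in EtOH and 0 in HgCl2, and SLC7A2, SLC7A3 and SLC7A4 had 0 counts, with 10, 62 and 146 own bases over all their transcripts.

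The proton-coupled SLC36 carriers, which export small amino acids from lysosomes or take them up at the cell surface, had similar counts in both groups. SLC36A4 (ENST00000326402) had 232 and 227 counts in EtOH and 248 and 230 in HgCl2, with a log2 fold change of 0.20 (-0.07 to 0.47) that became -0.16 when transcripts of like GC content were used as the reference. SLC36A1 (ENST00000243389) had 159 and 192 against 168 and 169, with a log2 fold change of 0.08 (-0.23 to 0.40) and values from -0.09 to 0.26 under the alternatives. Both intervals include 0 and leave out a 2-fold change in either direction, as far as counting error goes. SLC36A2 and SLC36A3, which are known from kidney and testis, had 0 counts.

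Of the SLC1 family, SLC1A1 (EAAT3), a glutamate and cysteine carrier, was the only well-counted member. Its main transcript ENST00000262352 had 50 and 58 counts in EtOH and 34 and 41 in HgCl2. The log2 fold change was -0.38, and its interval (-1.02 to 0.25) includes 0. SLC1A3 (EAAT1) rose on the short coding transcript ENST00000512374, with 3 and 5 counts in EtOH and 16 and 23 in HgCl2, a log2 fold change of 2.39 (0.85 to 4.44). Its main transcript has 3 own bases and 0 counts. SLC1A5 (ASCT2), the neutral exchanger and a main route for glutamine in tumour cells, had 14 and 6 counts on its main transcript ENST00000542575 in EtOH and 1 and 1 in HgCl2, a log2 ratio of the means of -3.18 (-8.62 to -0.37). SLC1A4 (ASCT1) had 5 and 5 counts on a retained intron in EtOH and 0 in HgCl2, and the upper limit of its log2 change, 0.27, does not leave out equal levels. SLC1A2 had 1 count in 1 EtOH column, and SLC1A6 and SLC1A7 had 0. SLC1A4 and SLC1A5 did not pass the FPKM filter.

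SLC43A2 (LAT4), a uniporter for branched-chain amino acids, had 0 and 1 counts in EtOH and 17 and 21 in HgCl2. These are on the main transcript ENST00000301335 (chr17:1569268-1628834), with 5104 own bases, and the log2 ratio of the means was 5.39 with a wide interval (2.01 to 15.4). Its FPKM stayed under 1 in both groups, so it did not enter the fit. It was named after its values were seen, as were SLC1A5, SLC1A4, the transcript of SLC1A3, the low-count transcripts of SLC38A6, SLC38A9 and SLC7A6 and the pieces of SLC38A2 and SLC3A2 under 30 counts. SLC43A1 and SLC43A3 had 0 counts.

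Over the whole set, 29 transcripts of 12 genes passed a group mean of 1 FPKM in EtOH or HgCl2 and entered the fit of 17547 transcripts. Of these, 5 were at least 2-fold higher in HgCl2 and 4 at least 2-fold lower, where all transcripts of the fit gave 19.2% higher and 34.1% lower. The median log2 fold change of the 29 was 0.25, against -0.21 over all. Among the 12 well-counted transcripts 3 were higher and 1 lower, where all well-counted transcripts gave 15.5% higher and 9.53% lower, with medians of 0.29 and 0.21. The 3 higher are all pieces of SLC38A2 and so share a gene. Among the 17 with fewer counts 2 were higher and 3 lower, with 21.7% and 50.9% over all such transcripts, and 1 of the 3, SLC3A2 ENST00000542793, had 2 and 4 counts in EtOH and 1 and 0 in HgCl2, too few for a fold.

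Per gene, 0 of the 7 transporter genes with a mean of at least 30 summed counts were 2-fold higher and 1, SLC3A2, was lower, where 8.33% and 12% of 6434 genes were. The log2 fold changes of the sums were 0.12 for SLC38A1, 0.33 for SLC38A2, 0.10 for SLC7A1, 0.04 for SLC36A4, -0.05 for SLC36A1 and -0.54 for SLC1A1. The scaling of the gene fit differs from that of the transcript fit by 0.16 on the log2 scale, which lowers these values against those above. None of the 6 well-counted main transcripts reached 2-fold, where 6.7% of all 3255 such transcripts were higher and 8.08% lower.

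**Figure D3:**
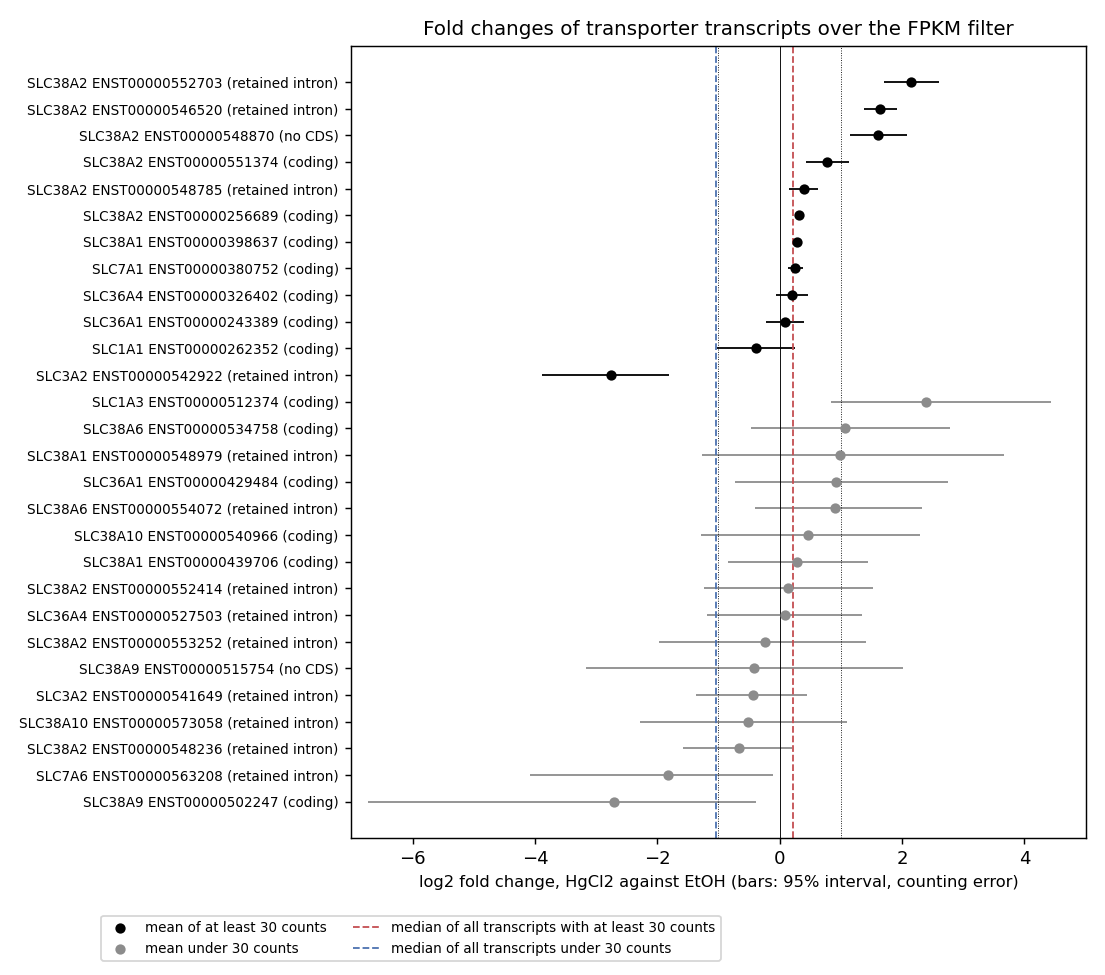
Log2 fold change in HgCl2 against EtOH (x axis) of 28 transporter transcripts over the FPKM filter (y axis), leaving out 1 at or under 3 counts in both groups. Points are edgeR estimates, bars are 95% Clopper-Pearson intervals of counting error, dotted lines mark 2-fold, and dashed lines mark the medians of all transcripts with at least 30 counts (0.21) and with fewer (-1.04). Introns 14, 13 and 4 of SLC38A2 lie right of the 2-fold line and the SLC3A2 intron left of it.

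How much of the set could be seen was limited. In all, 58 of 429 listed transporter transcripts, in 20 genes, had a count, and 19 genes (48.7%) had 0 counts in every column, against 41.8% of 19926 protein-coding genes. The number with a count per column was 55 and 55 in EtOH and 40 and 39 in HgCl2. Of the 37 main transcripts that are listed, 10 had a count, and of the 17 main transcripts with under 150 own bases in a row 0 had one. On the other side, 16 of the 19 genes at 0 have some transcript with at least 150 own bases in a row. That transcript is not always the main one. At 0 counts, the main transcripts of SLC1A7, SLC38A5, SLC3A1, SLC43A1, SLC43A3, SLC7A2, SLC7A3, SLC7A4, SLC7A8, SLC7A9 and SLC7A10 have fewer. Those of SLC1A6, SLC36A2, SLC36A3, SLC38A3, SLC38A4, SLC38A8, SLC7A5 and SLC7A13 have at least 150. The part of own bases in these zeros was not tested. With 0 counts the upper limit is 3 counts per column, which covers counting error only. Where own bases are few, this limit on counts does not bound the level of the mRNA. A gene at 0 was not detectable with this depth and this way of counting.

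Counts also ran with base composition. Among main transcripts of all genes with at least 150 own bases in a row, the mean count fell from 615 at 35% to 40% GC to 9.19 above 60%, and the share with a count went from 74.4% to 28.7%. The median GC content of the main transcripts was 43.9% for the 7 well-counted transporter genes and 52.9% for the 19 at 0. The median log2 fold change of well-counted transcripts went from 0.47 under 35% GC to -0.25 above 60%. The well-counted pieces of SLC38A2 belong to transcripts of 35% to 40% GC, where that median was 0.36, and the SLC3A2 intron to one of 51.1%, where it was -0.12. Less that median, intron 14 of SLC38A2 stood at 1.78, intron 13 at 1.29, intron 4 at 1.25 and the SLC3A2 intron at -2.64. The part of GC content in the genes at 0 was not tested.

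**Figure D4:**
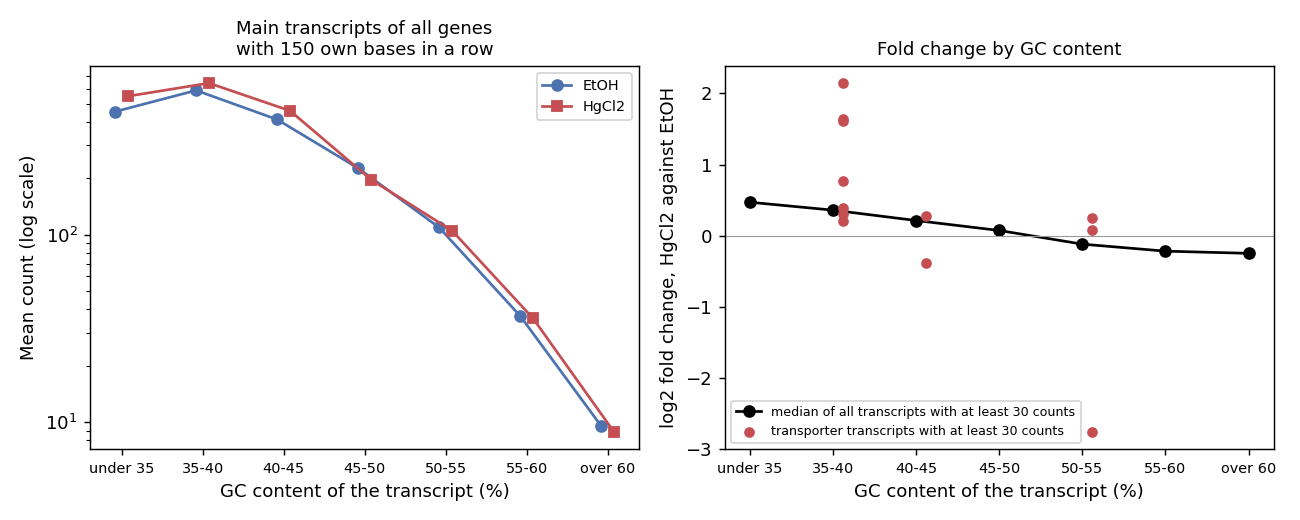
Left, mean count (y axis, log scale) of the main transcripts of all genes with 150 own bases in a row, by GC content in percent (x axis), for EtOH and HgCl2. Right, log2 fold change (y axis) by GC content, with the median of all well-counted transcripts in black and the 12 well-counted transporter transcripts in red. Both the mean count and the median fold change are lowest above 60% GC.

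Other genes of amino acid supply and sensing were read from the same fit, and the background for their counts is again 19.2% higher and 34.1% lower. Each count or fold change named under a gene of these lists is that of a single transcript. No sum per gene is given for them. Of 24 genes for other amino acid transporters 9 transcripts were in the fit, with 0 higher and 4 lower. SLC25A12, the mitochondrial aspartate and glutamate carrier, had 110 and 114 counts in EtOH and 51 and 42 in HgCl2 on ENST00000422440. That transcript fell by 1.12 on the log2 scale (-1.65 to -0.62). SFXN1, a mitochondrial serine carrier, SLC25A15, the ornithine carrier, and SLC6A15, a neutral amino acid carrier, had log2 fold changes of 0.17, 0.21 and 0.04.

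Of 23 genes of the GCN2 and ATF4 response and of amino acid synthesis, 33 transcripts were in the fit, with 6 higher and 10 lower. Asparagine synthetase (ASNS), a defining ATF4 target, had all 3 of the well-counted transcripts of the list that rose. One coding transcript of ASNS, ENST00000448127, had 58 and 64 counts in EtOH and 212 and 234 in HgCl2. It rose by 2.01 on the log2 scale (1.60 to 2.45). The ASNS retained introns ENST00000495255 and ENST00000487714 rose by 1.66 (1.32 to 2.0) and 1.63 (1.12 to 2.17). Such rises were common for this type of transcript. Of all 1059 well-counted retained introns, 32.5% were at least 2-fold higher in HgCl2 and 6.7% at least 2-fold lower. No value for the ASNS gene as a whole, or for its other coding transcripts, is given here. PSAT1 of serine synthesis, with 3578 and 3635 counts against 3994 and 3902, and GOT2, an aspartate aminotransferase, with 923 and 983 against 801 and 808, had log2 fold changes of 0.27 and -0.10. The median of the 16 well-counted transcripts of this list was 0.10.

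Of 36 genes of amino acid sensing by mTORC1, 40 transcripts were in the fit, with 8 higher and 12 lower. MTOR, the kinase itself, had 118 and 132 counts in EtOH and 36 and 31 in HgCl2 on ENST00000361445. That transcript fell by 1.75 (-2.35 to -1.20). LAMTOR1, the lysosomal anchor of the Rag GTPases, fell by 2.20 on ENST00000545249, with 73 and 75 counts against 13 and 16. WDR59, a subunit of GATOR2, gave transcripts that moved apart, with 112 and 132 counts against 56 and 54 on ENST00000262144 (log2 -1.0) and 18 and 23 against 55 and 48 on ENST00000536050 (log2 1.47). A transcript of RRAGB without a coding sequence rose by 1.53, from 15 and 18 counts to 42 and 45. RRAGC, RRAGA and FNIP2 had log2 fold changes of -0.16, 0.27 and 0.34.

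Of 10 genes for partners and regulators of the transporters, 10 transcripts were in the fit, with 1 higher and 4 lower. ARL6IP5, known to hold back the glutamate carrier SLC1A1, had 423 and 421 counts in EtOH and 162 and 157 in HgCl2 on ENST00000273258. That transcript fell by 1.26 (-1.53 to -0.99). A retained intron of SGK1, a kinase that raises the surface level of several carriers, rose by 1.24 (0.87 to 1.61), from 86 and 99 counts to 199 and 196. As given above, 32.5% of all well-counted retained introns were at least 2-fold higher. LAPTM4A, a lysosomal membrane protein, had 2937 and 2853 counts against 1828 and 1797, a log2 fold change of -0.53 (-0.62 to -0.45).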

How the data were processed

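RNA of H1299 cells was measured in 4 samples, 2 labelled EtOH and 2 labelled HgCl2. After trimming (Trim Galore 0.6.5) and alignment to GRCh38 and Ensembl 98 (STAR 2.5.4b), the authors deposited raw counts per transcript from Rsubread 2.0.1; the counting options and the use of strand were not given in the sources used here. FPKM values were computed by the authors in DESeq2 1.26.0 and deposited beside the counts. Columns were assigned to samples by name.

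Gene names, exons and main transcripts (MANE Select) came from GENCODE 44 on the same build, a later release, in which 223558 of 227368 identifiers were found. Of the 495 annotated transporter transcripts 429 are in the table. Sequences were read from GRCh38. Own bases are exon bases that no other listed transcript covers on either strand. Counts were fitted with edgeR 4.0.16 (glmQLFit, TMM, R 4.3.3) over the 17547 transcripts whose group mean passed 1 FPKM in either group. The plan was to call changes by adjusted p and fold. The columns of a group differed by less than sampling noise, so each group was taken as 1 sample and calls rest on the 2-fold limit alone. Nothing in the labels says whether the columns came from separate cultures, and the paper calls them independent. Where a group has 1 to 3 counts the ratio is given with its counting interval, and no fold is given where both groups have 3 counts or fewer. Ratios to the main transcript use mean counts with Wald intervals. On simulated counts for 17547 transcripts, 200 of 200 changed 4-fold passed the 2-fold limit, with medians of 2.01 and -1.95. The changed transcripts were drawn from those with an EtOH mean of at least 30 counts, so passing was nearly fixed in advance. The simulated columns were independent, unlike those here. The simulation checks that the fit runs and says nothing about transcripts with fewer counts.

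Every member is named. Values are given for member transcripts averaging 30 counts or more or, from 20 counts in 1 group, past 2-fold; from the other lists come well-counted ones (30 or more) past 2-fold and the 3 with the most counts. The members, lists and rules were chosen with earlier results of these data known. Alternatives changed the filter, scaling, pseudocount, replicate block and floor of low counts and left out columns in turn (DESeq2 1.42.0 for 1 of them). The centring on GC content was chosen after seeing the data. SLC7A11 is left out by the choice of members. Some items that the rules cover are not reported here.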

Additional observations from a re-analysis of the deposited data

How the results depend on the processing

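The 5 higher and 4 lower transporter transcripts became 3 and 0 with at least 10 counts required in every column, which removes the SLC3A2 intron by its 9 counts, and their median became 0.09. Without a filter on FPKM they became 10 and 25 with a median of -0.34, below 0 where all transcripts had -0.83, and by log2(FPKM + 0.1) 8 were higher. Centred on transcripts of like GC content and count, an alternative added after seeing the data, 11 were higher and 2 lower. The median went from 0.25 to 0.81, where all transcripts had 0.0. The medians subtracted from transcripts under 30 counts lay between -0.76 and -1.47, which moves low-count members up, while 4 well-counted members stayed past 2-fold. Shares of all transcripts past 2-fold under these alternatives are not given, so the changed counts are not read as a result about the transporters. Leaving out each column in turn gave 5 to 6 higher, 4 to 5 lower, a median of 0.20 to 0.29, 4 to 4 well-counted transcripts past 2-fold, 1 to 1 gene on summed counts and 40 to 48 transcripts of the other lists past 2-fold. The last number was 45 as reported, 14 with at least 10 counts in every column, 130 without the filter, 23 with filterByExpr and 28 by log2(FPKM + 1). With the replicate number as a block the values were 5, 4, 0.25, 4, 45 and 1, as without it; columns that agree within sampling noise cannot show whether the numbers pair the samples. Of 167 values of the 12 well-counted transcripts under the alternatives, 163 kept their sign, and 0 that were past 2-fold turned. Sums per gene were not centred on GC content. With 1 sample a group, no spread between cultures is known. Of the 39 genes 32 have under 30 counts, 19 of them none, so a change in those was mostly not detectable with this depth and this way of counting.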
